A study of Mus musculus with 8 samples.

Results

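The genes described here are 46 genes of the G2 phase and mitosis, taken by symbol from the 23433 gene symbols counted in 8 mouse skin RNA-seq libraries. All 46 were found, and all 46 passed the low-count filter that left 14176 genes for testing. They were listed by symbol with earlier results of these data known, and they run from the cyclins that start mitosis to the proteins that divide the cell. The libraries came from 4 newborn pups at postnatal day 0.5, with hair germ (the early epithelial bud of a hair follicle) and interfollicular epidermis (the epithelium between follicles) sorted from each pup. The transgenic pups (4 and 6) had both pTRE2-200bcl, which expresses miR-200 genes from a doxycycline-responsive promoter, and K14rtTA, the activator of that promoter made in keratin 14-expressing cells. Neither control pup carried both: pup 3 had K14rtTA alone and pup 5 had pTRE2-200bcl alone, so the control pair also differed in genotype. Every dam received doxycycline in the chow during pregnancy, so the controls were exposed to it as well, and all pups were of mixed strain. Sorted cells were K14RFP-positive (a red reporter of keratin 14) and high for alpha6 integrin, with P-cadherin high for hair germ and low for interfollicular epidermis. Each of the 4 groups had 2 pups.

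Mitosis is run by cyclin-dependent kinase 1 with cyclins A and B, which a phosphatase (Cdc25) switches on and the anaphase-promoting complex switches off by marking cyclin B for destruction. Between these steps, kinesins and microtubule proteins build the spindle, kinetochores attach chromosomes to it, a checkpoint holds anaphase until attachment is complete, condensins compact the chromosomes, and a contractile ring parts the daughter cells. Most of these genes are transcribed in G2 and M and held down in resting cells. Factors that read CHR and CCAAT elements near the start site take part in this control. The RNA of these genes is therefore widely used as a readout of cycling cells. In newborn skin the basal epidermis and the growing hair bud both contain dividing keratinocytes.

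The promoter letters of these genes are shown first because they do not come from the counts. The genes chosen are of a class described above as controlled through these elements. An excess of the letters therefore follows from the choice and is no separate result. RefSeq windows from 250 bases before to 50 after the start (GRCm38.p6) were at hand for 39 of the 46. In 36 of these 39, the last bases of the window were found near the start of a GENCODE M21 transcript of the gene. Letters of 3 kinds were searched on both strands: TTTGAA and TTCGAA for the CHR, and CCAAT for the CCAAT box. TTCGAA reads the same on both strands, and a CHR and a CCAAT match shared bases at 1 place among the 39 windows. Either CHR spelling lay in 31 of 39 windows (79.5%), against 19.4% of all 27025 windows and 13.7% of the 10306 windows of tested genes. CCAAT lay in 30 of 39 (76.9%), against 37.9% of all windows. Both kinds lay together in 27 of 39 (69.2%), against 7.7% of all windows. A CHR within 60 bases before to 40 after the start was present in 26 of 39 (66.7%), against 5.41% of all windows. A match is only a match of letters and shows no bound factor. The stretches below end at the base before the RefSeq start, run 5′ to 3′ on the gene's strand, and carry CHR and CCAAT letters of either strand in capitals. They were picked by role and by the results below: Cdk1, an activator and 2 other anaphase genes, a spindle motor, chromosome proteins with the called gene Smc2, and Nek2, whose window holds no CHR letters.
Cdk1: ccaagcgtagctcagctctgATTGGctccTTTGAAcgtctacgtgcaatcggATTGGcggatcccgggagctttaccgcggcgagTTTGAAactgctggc
Cdc20: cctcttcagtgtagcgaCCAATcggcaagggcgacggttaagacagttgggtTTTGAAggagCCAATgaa
Kif11: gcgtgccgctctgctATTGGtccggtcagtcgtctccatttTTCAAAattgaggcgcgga
Top2a: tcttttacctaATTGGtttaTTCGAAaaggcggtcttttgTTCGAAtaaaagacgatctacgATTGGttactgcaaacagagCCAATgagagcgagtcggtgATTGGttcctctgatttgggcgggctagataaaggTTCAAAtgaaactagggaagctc
Ncapg: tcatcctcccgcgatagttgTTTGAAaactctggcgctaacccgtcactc
Ube2c: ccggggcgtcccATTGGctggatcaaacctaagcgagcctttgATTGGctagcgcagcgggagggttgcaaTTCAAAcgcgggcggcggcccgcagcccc
Espl1: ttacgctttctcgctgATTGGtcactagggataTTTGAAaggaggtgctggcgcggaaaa
Mki67: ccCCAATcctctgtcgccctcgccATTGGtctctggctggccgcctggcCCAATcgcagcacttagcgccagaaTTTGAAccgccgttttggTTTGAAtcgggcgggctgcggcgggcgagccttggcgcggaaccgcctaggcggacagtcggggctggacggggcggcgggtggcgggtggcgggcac
Smc2: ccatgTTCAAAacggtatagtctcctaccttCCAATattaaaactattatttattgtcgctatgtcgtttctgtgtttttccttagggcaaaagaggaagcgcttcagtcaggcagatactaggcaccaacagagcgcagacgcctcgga
Nek2: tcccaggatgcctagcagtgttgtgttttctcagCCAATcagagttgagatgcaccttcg

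On GRCm38.p6 these stretches lie at chr10:69352913-69353012 on the minus strand for Cdk1, chr4:118437344-118437413 on the minus strand for Cdc20, chr19:37376322-37376381 on the plus strand for Kif11 and chr11:99024190-99024349 on the minus strand for Top2a. Those of Ncapg (chr5:45669875-45669924), Ube2c (chr2:164769829-164769928) and Espl1 (chr15:102296233-102296292), Smc2 (chr4:52439071-52439220) and Nek2 (chr1:191821413-191821472) are on the plus strand, and that of Mki67 (chr7:135716380-135716569) is on the minus strand. Over their whole windows, Top2a held 4 CHR and 6 CCAAT matches, Mki67 held 2 and 3, Smc2 held 2 and 1, and Nek2 held 0 and 2. The folds of the transgenic comparison described next can be set beside these letters, with no test. The 31 members with CHR letters had median log2 fold changes of -0.45 in hair germ and -0.60 in interfollicular epidermis, and the 8 members without had -0.39 and -0.49. Among those 8 is Mad2l1, whose window ends at chr6:66535270, before the gene's GENCODE M21 start at 66535390.

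The libraries differed in more than their group. Gene counts ran from 7109871 to 14039583 per library. Rn45s, the ribosomal RNA precursor, took 30.6% of the counts of interfollicular epidermis control pup 3 and 29% of those of transgenic pup 4, and 3.56% to 13% elsewhere. Pup 4 was the only pup with reads of Y-linked genes above a handful, at 2156 and 1535 counts against 0 to 4. The miR200primary feature, the check of the transgene, stood at 526 to 797 CPM (a gene's share of the TMM-scaled library size) in the 4 transgenic libraries and at 0.176 to 3.83 in controls. Keratinocyte markers were high in every library, and the summed level of the 15 basal markers moved with genotype, from 35194 to 46363 CPM in controls and from 22017 to 27879 in transgenics. Markers of other cells moved with genotype too. The 20 immune markers found summed to 69.4 to 240 CPM in controls, 250 and 423 in transgenic hair germ, and 2838 and 3753 in transgenic interfollicular epidermis. The 11 melanocyte markers summed to 21.5 to 36.6 CPM in controls and 149 to 206 in transgenics, and the 10 fibroblast markers to 1016 to 1286 in controls and 469 to 689 in transgenics. Only 6 of the 10 fibroblast markers passed the low-count filter, and they did not move as one. Their log2 fold changes (transgenic against control) ran from -1.6 (Dcn) to 2.2 (Col1a1) in hair germ. In interfollicular epidermis they ran from -1.84 (Dcn) to 0.62 (Col1a1). Endothelial and erythroid markers stayed at or under 17.4 CPM in sum, and 3 of the 5 erythroid markers found were at 0 in every library. The part of these keratinocyte and other cell markers in the results below was not tested. In bulk RNA of this kind, fewer cycling cells and less mitotic RNA per cycling cell cannot be told apart.

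After TMM scaling, the summed level of the mitotic genes was lower in the transgenic libraries of both populations. The 46 genes summed to 5664 and 5026 CPM in control hair germ (pups 3 and 5) and to 3720 and 4100 CPM in transgenic hair germ (pups 4 and 6). In interfollicular epidermis they summed to 4569 and 4536 CPM in controls and to 2904 and 3475 CPM in transgenics. On this scale each of the 4 transgenic sums lay under each of the 4 control sums. As a plain share of gene counts the hair germ order held (0.624% and 0.539% against 0.392% and 0.476%), but interfollicular epidermis overlapped, at 0.355% and 0.436% in controls against 0.236% and 0.393% in transgenics. With Rn45s left out of the total, the shares did not overlap within either population, at 0.662% and 0.559% against 0.451% and 0.508% in hair germ and 0.511% and 0.453% against 0.333% and 0.411% in interfollicular epidermis. Transgenic hair germ pup 6 then lay above interfollicular epidermis control pup 5. Mki67, the nuclear proliferation marker that coats mitotic chromosomes, supplied 25.3% of the summed counts on average over the libraries.

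**Figure D1:**
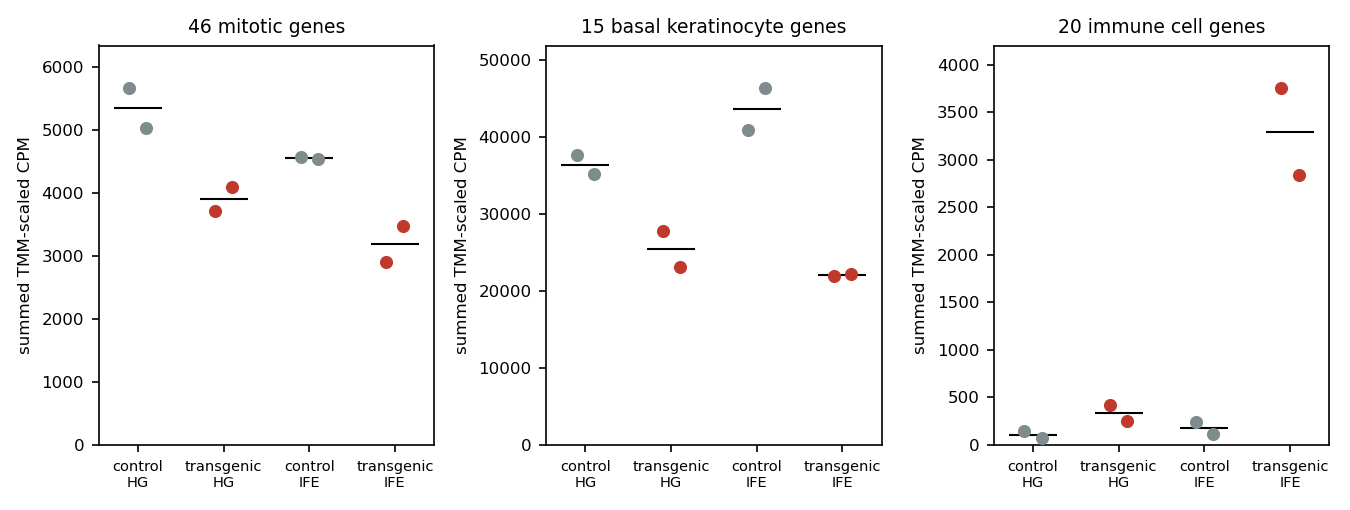
Summed TMM-scaled CPM (y axis) of the 46 genes, of 15 basal keratinocyte markers and of 20 immune cell markers, by group (HG, hair germ; IFE, interfollicular epidermis), with 1 point per library, the lower-numbered pup on the left, and a line at the mean of 2 pups. For the 46 genes the transgenic libraries (red) sit between 2904 and 4100 CPM and the control libraries (grey) between 4536 and 5664, and the immune markers reach 2838 and 3753 CPM in transgenic IFE.

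In hair germ, 41 of the 46 genes had a log2 fold change (transgenic against control) below 0, where 47.2% of all tested genes did, and 55.4% of the 7677 genes whose mean log2 CPM reaches 4, as it does for 44 of the 46. The median was -0.43, against 0.04 over all tested genes and -0.06 over the 7677. The differences of single genes did not pass: edgeR's quasi-likelihood test called 0 of 46 at an adjusted p under 0.05, where 0.952% of all genes were called and 0.19% were called lower. At an unadjusted p under 0.05, 13 of the 46 were lower and 0 higher, against 5.88% of all genes and 637 of the 7677 lower. DESeq2 called 3 of the 46 lower (Anln, Kif4 and Smc2), and 663 of all 14176 genes either way. limma-voom called 0 of the 46 and 17 of all genes. In 22 of 46 both transgenic libraries lay under both controls, as for 16.9% of all genes and 1749 of the 7677.

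In interfollicular epidermis, 2 of the 46 genes fell: Smc2, a core subunit of condensin, and Anln, the anillin scaffold of the contractile ring. For comparison, 1.35% of all tested genes were called lower and 6.34% either way, and 2.46% of the 7677 were called lower. Again 41 of 46 log2 fold changes were below 0 (50.6% of all genes, and 60.5% of the 7677). The median was -0.56, against -0.01 over all genes and -0.12 over the 7677. At an unadjusted p under 0.05, 14 were lower and 0 higher, against 6.56% of all genes and 880 of the 7677 lower. DESeq2 called 3 of the 46 lower (Smc2, Anln and Cenpf), and 1095 of all 14176 genes either way. limma-voom called 2 of the 46 (Smc2 and Anln) and 661 of all genes. Both transgenic libraries lay under both controls in 30 of 46, as for 25% of all genes and 2656 of the 7677. That last count depends on the scaling: with library size alone, which moves the median of all genes to 0.149, it is 11 of 46, and the hair germ count is 19. The shares of all genes given here are on the TMM scale, so counts with library size alone cannot be set against them. The populations shared this direction, with 37 genes below 0 in both, 1 (Espl1) above 0 in both and 8 divided. Of all tested genes, 31.4% were below 0 in both. Both populations came from the same 4 pups, so they are not independent here or in the counts that follow. In 14 genes all 4 transgenic libraries lay under all 4 controls, as for 4.77% of all genes, and with library size alone in 3. In 19 the transgenic pair lay under the control pair within each population, as for 8.39% of all genes.

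**Figure D2:**
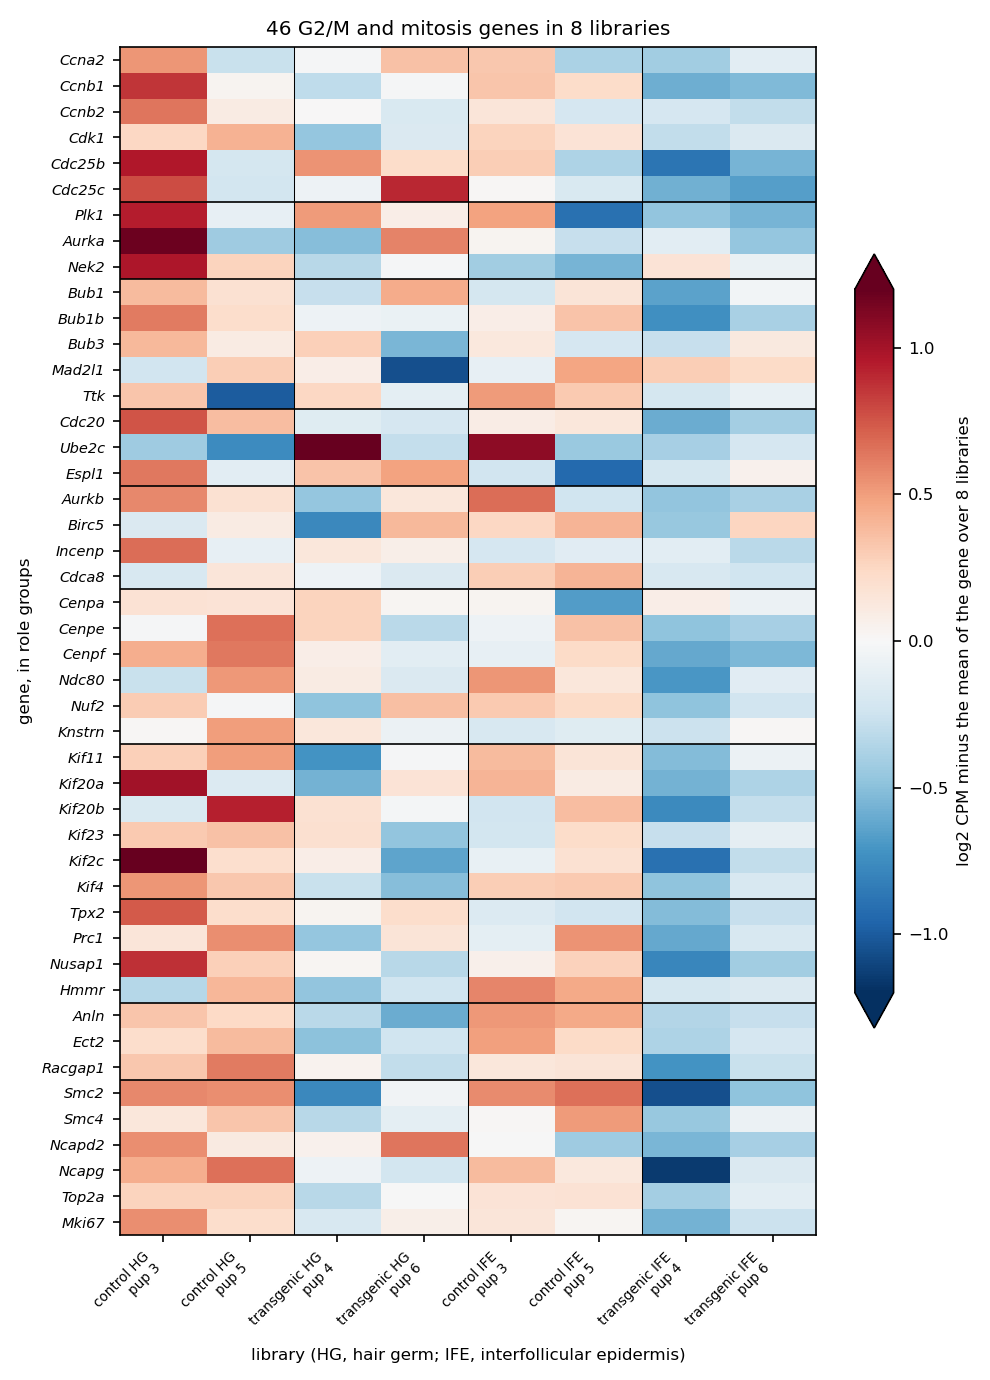
Levels of the 46 genes in the 8 libraries, each shown as log2 CPM relative to its mean over the libraries and ordered by role. The interfollicular epidermis library of transgenic pup 4 is the lowest of the 8 for 25 genes.

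**Figure D3:**
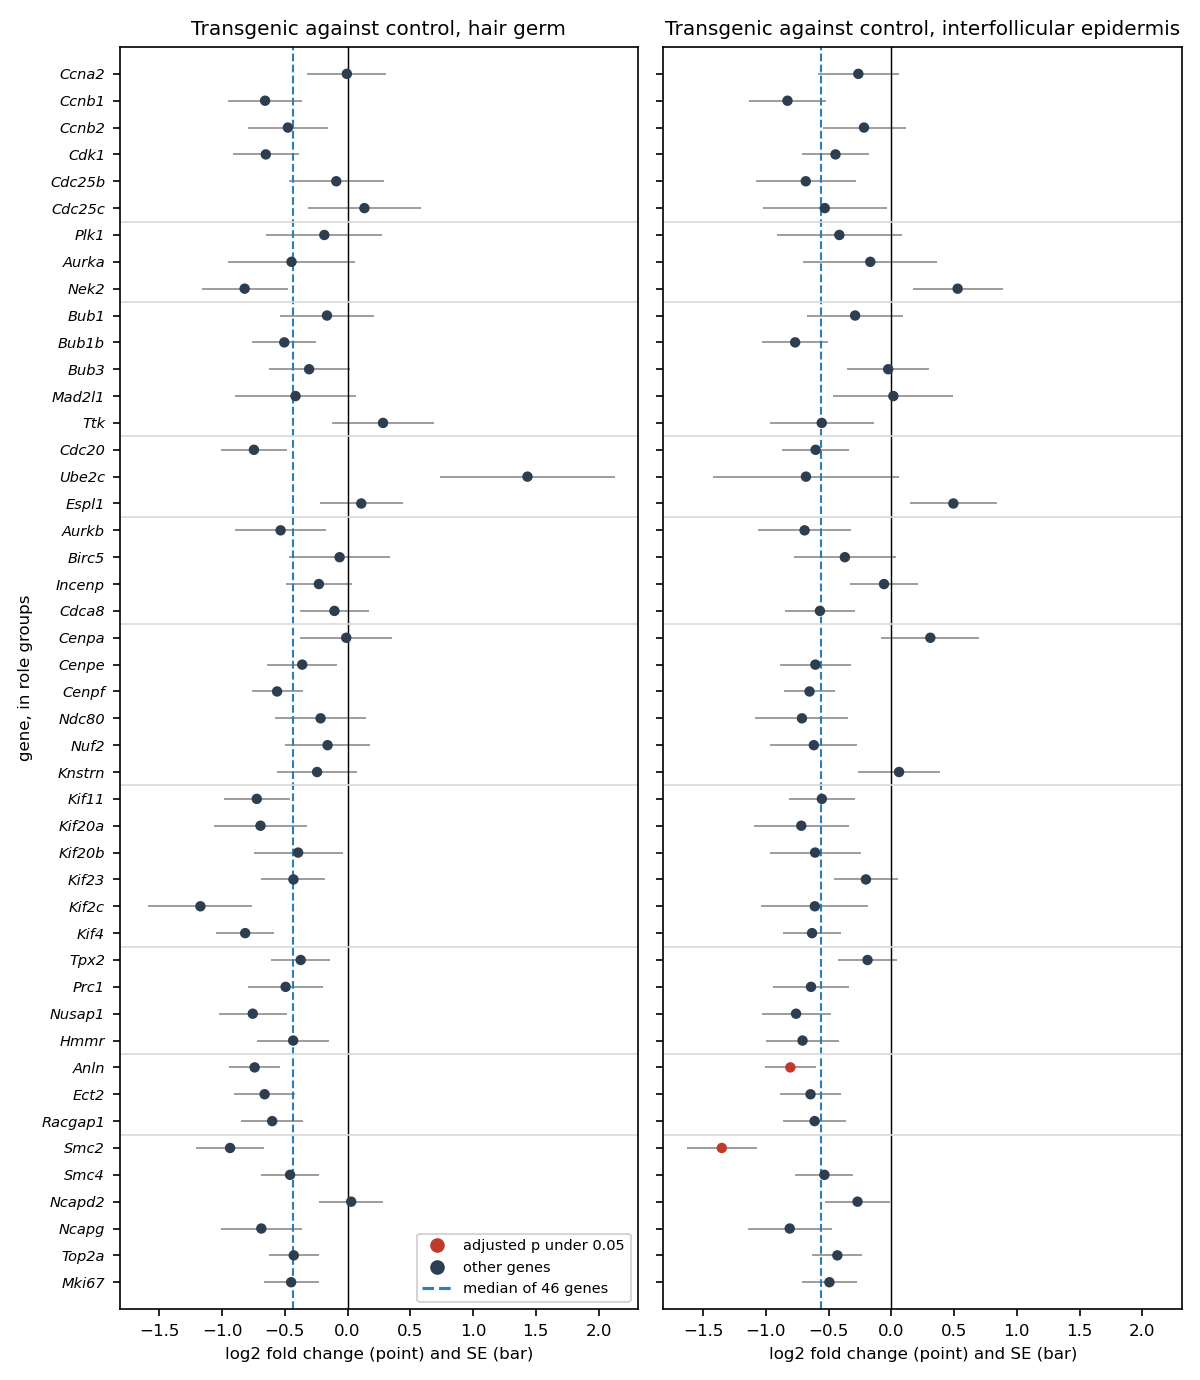
Log2 fold change, transgenic against control, of the 46 genes in hair germ (left) and interfollicular epidermis (right), with bars of 1 SE; red marks an adjusted p under 0.05 and the dashed blue line the median of the 46. Most points lie left of 0 in both panels, at a median of -0.43 and -0.56, and Smc2 and Anln are the red points.

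The cyclins, Cdk1 and the Cdc25 phosphatases did not move as one. Ccnb1, cyclin B1, the partner that drives entry into mitosis, stood at 90.5 and 51.2 CPM in control hair germ and 40.3 and 49.4 in transgenic hair germ. In interfollicular epidermis it stood at 62.7 and 58.1 CPM in controls and 33.3 and 34.5 in transgenics. No transgenic library overlapped a control library, though hair germ control pup 5 was within 2 CPM of transgenic pup 6. The log2 fold changes were -0.66 (SE 0.30, edgeR adjusted p = 0.288) and -0.83 (SE 0.30, edgeR adjusted p = 0.16). Cdk1, the kinase itself, gave 49.0 and 54.9 CPM against 29.8 and 36.5 in hair germ, and 49.5 and 46.1 against 33.6 and 36.4 in interfollicular epidermis, also with no overlap. Ccna2, cyclin A2, which acts in S phase and early mitosis, overlapped: 107 and 61.5 CPM against 73.2 and 94.3 in hair germ, where its log2 fold change was -0.0059 (SE 0.32). Cdc25c, a Cdk1-activating phosphatase, was above 0 in hair germ at 0.13 and below 0 in interfollicular epidermis at -0.53. Over the 6 genes the medians were -0.28 and -0.49.

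The 3 mitotic kinases did not share a pattern. Plk1, polo-like kinase 1, which matures centrosomes and promotes entry, ran from 12.1 to 43.0 CPM over the 8 libraries, and controls and transgenics overlapped in both populations. Nek2, a kinase that parts the centrosomes, had 50.8 and 31.2 CPM in control hair germ against 20.6 and 25.8 in transgenic hair germ. In interfollicular epidermis the order was the other way, with 19.5 and 17.7 CPM in controls and 29.1 and 24.6 in transgenics. Neither population overlapped between genotypes. The log2 fold changes were -0.82 (SE 0.34, edgeR adjusted p = 0.248) and 0.53 (SE 0.36, edgeR adjusted p = 0.552), the highest of the 46 in interfollicular epidermis. Aurka, Aurora A, a spindle pole kinase, differed 3.04-fold between the control hair germ pups, more than any other member in that group.

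Checkpoint genes were led by Bub1b. BubR1, its product, restrains the anaphase-promoting complex until kinetochores are attached. It had 89.3 and 67.1 CPM against 55.5 and 54.7 in hair germ, and 61.1 and 73.3 against 34.7 and 44.2 in interfollicular epidermis (log2 fold changes -0.50 and -0.77, edgeR adjusted p = 0.347 and 0.126). All 4 transgenic libraries lay under the controls. Bub1, the kinase that recruits checkpoint proteins to kinetochores, overlapped in both populations. Mad2l1, which makes the inhibitory Mad2 protein, had the lowest level per length of the 46 and overlapped too, with fold changes of -0.42 and 0.016.

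The 3 anaphase genes differed from each other. Cdc20, the activator that brings the anaphase-promoting complex to its substrates, stood at 75.5 and 57.7 CPM against 40.5 and 38.8 in hair germ, and at 47.4 and 49.0 against 29.5 and 33.7 in interfollicular epidermis. There was no overlap in either, and the log2 fold changes were -0.75 (SE 0.26, edgeR adjusted p = 0.176) and -0.60 (SE 0.27, edgeR adjusted p = 0.263). Ube2c, the ubiquitin-conjugating enzyme of that complex, had 5.18 and 4.12 CPM in control hair germ and 18.7 and 5.70 in transgenic hair germ, where pup 4 alone was high. Its log2 fold change of 1.43 (SE 0.69, edgeR adjusted p = 0.321) was the highest of the 46 in hair germ and was 0.26 without pup 4's hair germ library. Counts of Ube2c were as low as 39. Espl1, separase, the protease that cuts cohesin at anaphase, was above 0 in both, at 0.11 and 0.49.

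The chromosomal passenger complex corrects faulty attachments, with Aurkb as its kinase. Aurkb stood at 47.1 and 35.9 CPM against 22.9 and 34.7 in hair germ, with no overlap, and at 50.3 and 26.7 against 22.7 and 24.2 in interfollicular epidermis, also with none. Cdca8, borealin, its targeting subunit, overlapped in hair germ and did not in interfollicular epidermis (43.4 and 46.8 CPM against 31.0 and 29.9). Medians over the 4 genes were -0.17 and -0.47.

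At the centromere and kinetochore, Cenpf was the gene with the smallest p in both populations. This large kinetochore protein peaks in G2 and M. It had 267 and 305 CPM in control hair germ against 208 and 180 in transgenic hair germ, and 184 and 231 against 129 and 136 in interfollicular epidermis, with no overlap in either. The log2 fold changes were -0.56 and -0.65 (SE 0.20 for both), and the edgeR adjusted p in interfollicular epidermis was 0.0917, which missed the threshold, while DESeq2 called it. Cenpa, the histone H3 variant that marks the centromere, stood between 12.3 and 23.5 CPM, and its groups overlapped in both populations. Over the 6 genes the medians were -0.23 and -0.61.

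Kinesins had the lowest median of any role in hair germ, at -0.71. Kif4, a chromosome-arm motor encoded on chromosome X, stood at 100 and 87.0 CPM against 57.5 and 48.6 in hair germ, and 85.2 and 86.0 against 49.5 and 60.6 in interfollicular epidermis. Both pairs were apart, with log2 fold changes of -0.82 and -0.63 (edgeR adjusted p = 0.114 and 0.166). Kif11, the motor that pushes spindle poles apart, had 177 and 206 CPM against 88.2 and 144 in hair germ, and 189 and 162 against 101 and 138 in interfollicular epidermis. Kif2c, a microtubule depolymerase at the centromere, had the lowest fold change of the 46 in hair germ, -1.17 (SE 0.41, edgeR adjusted p = 0.181). Its control pups differed, at 94.5 and 39.8 CPM against 36.7 and 22.3. Without the hair germ library of control pup 5 its fold was -1.68, and without that of control pup 3 it was -0.47.

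Spindle proteins followed the same order in interfollicular epidermis, where all 4 had both transgenic libraries under both controls. On the TMM scale this held for 25% of all genes. Nusap1, a microtubule bundler, stood at 128 and 84.9 CPM against 70.6 and 55.4 in hair germ and 72.8 and 84.5 against 40.5 and 52.2 in interfollicular epidermis, with log2 fold changes of -0.76 in each. Tpx2, which activates Aurora A on the spindle, reached 164 and 114 CPM in control hair germ against 101 and 114 in transgenic hair germ, where the lower control equals the higher transgenic value as printed.

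All 3 cytokinesis genes lay below the controls in all 4 transgenic libraries on the TMM scale, as for 4.77% of all genes. Anln stood at 166 and 155 CPM in control hair germ and 105 and 87.2 in transgenic hair germ. In interfollicular epidermis it stood at 189 and 181 CPM in controls and 103 and 109 in transgenics. The interfollicular fold was -0.81 (SE 0.20, edgeR adjusted p = 0.0349) and the hair germ fold -0.74 (SE 0.20, edgeR adjusted p = 0.099). The gene lies at chr9:22332012-22389188 on the minus strand of GRCm38, and no exon of another gene overlaps it. Its call is lost (edgeR adjusted p from 0.0573 to 0.408) without any 1 of the 4 interfollicular epidermis libraries or of the 2 transgenic hair germ libraries. Ect2, the exchange factor that switches on RhoA for the contractile ring, had folds of -0.66 and -0.64, and Racgap1, its partner at the central spindle, -0.60 and -0.61.

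Chromosome proteins held the lowest fold in interfollicular epidermis. Smc2 stood at 152 and 150 CPM in control hair germ and 59.5 and 98.8 in transgenic hair germ. In interfollicular epidermis it stood at 151 and 161 CPM in controls and 49.0 and 72.9 in transgenics. The interfollicular fold was -1.35 (SE 0.28, edgeR adjusted p = 0.0129) and the hair germ fold -0.94 (SE 0.27, edgeR adjusted p = 0.121). Smc2 lies at chr4:52439243-52488260 on the plus strand of GRCm38 with no overlapping exon of another gene. Its call is lost without interfollicular epidermis control pup 3 (edgeR adjusted p = 0.0546), control pup 5 (0.095) or transgenic pup 4 (0.203), and it passes without transgenic pup 6 (0.0313). Its condensin partner Smc4 had folds of -0.46 and -0.53, and the condensin I subunit Ncapg -0.69 and -0.81, while Ncapd2, another condensin I subunit, had 0.03 and -0.27. Top2a, topoisomerase II alpha, which untangles sister chromatids, stood at 422 and 423 CPM against 278 and 349 in hair germ and at 393 and 396 against 264 and 322 in interfollicular epidermis. Mki67 stood at 1555 and 1221 CPM against 924 and 1108, and at 1167 and 1072 against 709 and 880. Neither overlapped in either population.

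Both calls in interfollicular epidermis also ended with library size as the only scaling (edgeR adjusted p = 0.0539 for Smc2 and 0.439 for Anln). They ended when both libraries of pup 4 were left out (0.255 and 0.592 by edgeR), and when the pair of libraries richest in Rn45s was left out (0.391 and 0.726 by edgeR). The folds themselves stayed below 0 in these fits on fewer samples, at -1.04 for Smc2 and -0.71 for Anln without pup 4, and at -1.13 and -0.72 without the Rn45s-rich pair. The median of the 46 in interfollicular epidermis was -0.36 without pup 4 and -0.29 without the Rn45s-rich pair.

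Hair germ carried somewhat more mitotic RNA than interfollicular epidermis in both genotypes, and no single gene passed without the pup as a block. In control pups 34 of the 46 log2 fold changes (hair germ against interfollicular epidermis) were above 0, with a median of 0.28 (-0.04 over all genes, of which 53% were below 0). edgeR called 0 of 46, where 0.00705% of all genes were called, with 4 at an unadjusted p under 0.05 (8.46% of all genes), all higher. In transgenic pups 36 were above 0, with a median of 0.32 (0.02 over all genes, of which 48.6% were below 0). edgeR called 0 of 46, where 4.64% of all genes were called, again with 4 at an unadjusted p under 0.05 (18.5% of all genes), all higher. DESeq2 and limma-voom also called 0 in each. Both hair germ libraries lay above both interfollicular epidermis libraries in 18 genes in either genotype, as for 14.2% of all genes in controls and 26.4% in transgenics. The 12 suprabasal keratinocyte markers found (genes of the layers above the basal one) lay mostly lower in hair germ. Their medians were -0.92 in control pups (10 of 12 below 0) and -0.89 in transgenic pups (9 of 12). edgeR called 0 of these markers, and their part in the population difference was not tested.

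Because each pup gave both populations, the difference can also be read within a pup. Hair germ was higher for 33 of 46 genes in pup 3, 31 in pup 5, 38 in pup 4 and 31 in pup 6, with median differences of 0.22, 0.13, 0.37 and 0.11 log2 units. Nek2 had the largest control difference, 1.14 (SE 0.35), and Ube2c the lowest, -0.99 (SE 0.74). In transgenic pups Ube2c was the highest at 1.13 and Mad2l1 the lowest at -0.61. With the pup as a block, edgeR called 1 of the 46 in transgenic pups, where it called 1019 of all 14176 genes. That gene was Ncapd2 (0.83, edgeR adjusted p = 0.0277), at 139 and 210 CPM in hair germ and 91.9 and 102 in interfollicular epidermis. Without the block its edgeR adjusted p was 0.0949. Leaving out pup 4 takes the transgenic median to 0.054.

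**Figure D4:**
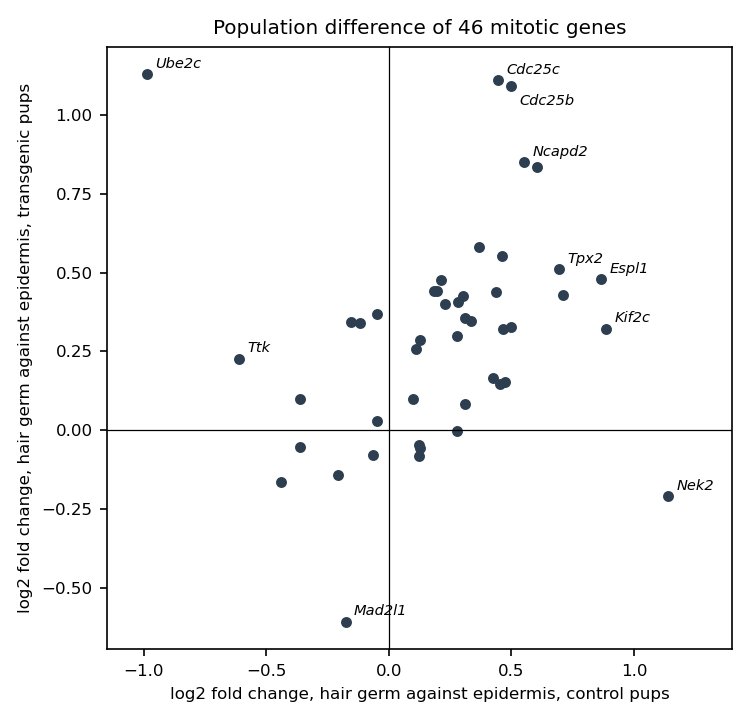
Log2 fold change, hair germ against interfollicular epidermis, in control pups (x axis) and transgenic pups (y axis), 1 point per gene. Most points lie above 0 on both axes, at medians of 0.28 and 0.32, and Nek2 and Ube2c stand away from the rest.

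The transgenic effect was not shown to differ between hair germ and interfollicular epidermis for any of the 46 genes. edgeR's interaction test called 0 of 46, where 0.134% of all genes were called, and 1 gene had an unadjusted p under 0.05 (8.09% of all genes). DESeq2 and limma-voom called 0. That gene was Nek2, with a difference of -1.35 (SE 0.50, edgeR adjusted p = 0.487). Ube2c had the largest positive difference, 2.11 (SE 1.01). The median difference of 0.07 (0.06 over all genes) turned to -0.09 with library size alone and to -0.07 without pup 4.

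Per length of merged exons (GENCODE M21), the mean level over the 8 libraries ran from 107 CPM per kb for Mki67 to 1.72 for Mad2l1. Smc4 at 42.1, Top2a at 39.5 and Cdc20 at 24.9 CPM per kb followed Mki67, and Ube2c at 3.11 and Cenpa at 3.39 stood just above Mad2l1. Exons of 14 of the 46 overlap a gene on the other strand, Cdc20, Kif4, Nusap1, Ccna2, Ncapg, Nek2 and Ube2c among them. For Ube2c the overlap with Tnnc2 is 592 bases, and for Nek2 that with Gm38037 is 298. How strand was treated in counting is not given in the sources at hand, so reads of such pairs cannot be told apart.

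Other genes of the cell cycle are described from lists chosen with earlier results of these data known. Of all tested genes, 47.2% were below 0 in hair germ and 50.6% in interfollicular epidermis. Called lower by edgeR were 0.19% and 1.35%, and 5.88% and 6.56% were lower at an unadjusted p under 0.05. Of 90 further mitotic genes, 65 had a log2 fold change below 0 in hair germ (median -0.29, 0 called by edgeR, 10 lower at an unadjusted p under 0.05) and 80 in interfollicular epidermis (median -0.40). There edgeR called 1 of the 90 lower, where 1.35% of all genes were. It was Aspm, a spindle pole protein, at 215 and 189 CPM in controls and 99.1 and 116 in transgenics (-0.90, SE 0.21, edgeR adjusted p = 0.0217). Among 13 regulators of mitotic transcription edgeR called 0 in either population, with 2 and 1 lower at an unadjusted p under 0.05, and medians of -0.13 and -0.33. Foxm1, the forkhead factor of G2 and M genes, stood at 127 and 117 CPM against 51.8 and 98.0 in hair germ and at 86.9 and 69.7 against 48.3 and 56.6 in interfollicular epidermis, with no overlap and edgeR adjusted p of 0.243 and 0.374. Mybl2, the B-Myb partner of that program, had folds of -0.0059 and -0.065.

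Genes of G1/S and replication also lay mostly below 0, and the same shares over all genes apply to the counts that follow. In interfollicular epidermis 4.99% of all genes were called higher. In hair germ 1593 of 14176 were higher at an unadjusted p under 0.05. Of 51, 37 were below 0 in hair germ (median -0.23, 0 called by edgeR, 7 lower and 2 higher at an unadjusted p under 0.05) and 48 in interfollicular epidermis (median -0.48). In interfollicular epidermis 4 fell by edgeR: Mcm7 (-1.05, adjusted p = 0.0186) and Mcm4 (-1.05, adjusted p = 0.0368) of the replicative helicase, Rrm2 (-1.44, adjusted p = 0.0358), a ribonucleotide reductase subunit, and Pole (-0.84, adjusted p = 0.0401), the leading-strand polymerase. Pcna, the sliding clamp, had folds of -0.21 and -0.41. Of 14 tested Cdk inhibitors and antiproliferative genes, Ccng2, cyclin G2, fell in hair germ (-1.63, edgeR adjusted p = 0.0492), and Rb1, the retinoblastoma protein, rose in interfollicular epidermis (1.34, edgeR adjusted p = 0.0436). The basal keratinocyte markers had medians of -0.39 and -0.86, with 0 called by edgeR in hair germ (4 lower at an unadjusted p under 0.05) and 8 of 15 lower in interfollicular epidermis. Calls of these other genes were not recomputed with single libraries left out.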

How the data were processed

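RNA was sequenced from sorted hair germ and interfollicular epidermis of 4 pups. The deposited values are raw read counts per gene symbol, made by the authors with TopHat and HTSeq on mm10 (GRCm38), with DESeq2 also named, per the submitters' processing notes. Versions and the handling of strand are not stated there. HTSeq's 5 summary lines were left out, and 23.4% to 42.4% of its records were assigned to genes. A count of 0 allows up to 3 counts (0.199 to 0.522 CPM), counting error only. Counts were scaled by TMM, filtered with filterByExpr and fitted as 4 group means in edgeR 4.0.16 (R 4.3.3, quasi-likelihood, legacy off), two-sided, with Benjamini-Hochberg adjustment over 14176 genes. Dividing the size of a log2 fold change by the root of its F statistic gave the SE. limma 3.58.1 and DESeq2 1.42.0 were alternatives. The fit was also run on simulated counts with larger changes than the medians of the 46 and no pup effect, so that run does not bear on those medians. The same pup number is the same animal, so populations are paired by pup; same-pup deviations correlated at 0.117 (all tested genes) and 0.424 (the 46) among control pups, and at 0.0868 and 0.0371 among transgenic pups. Genotype arms share no pup. The members and lists were chosen with earlier results of these data known. Named genes are those called, the first and smallest-p gene of each role, extremes of each contrast and of level per length, and called genes of other lists with Foxm1, Mybl2 and Pcna; other members were added after their values were seen.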

Additional observations from a re-analysis of the deposited data

How the results depend on the processing

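With 2 pups a group, calls depend on single libraries, and the causes of the changes below were not tested. In hair germ (transgenic against control) the count of all genes called went from 135 to 316 with library size alone, 663 with DESeq2, 17 with limma-voom, 54 with edgeR's legacy method, 1 without pup 4 and 20 without the Rn45s-rich pair of libraries, and ran from 14 to 345 as each library was left out. Of the 46 genes, DESeq2 called 3, and leaving out 1 library gave 0 to 1. In interfollicular epidermis the count of 899 became 541 with the legacy method, 207 without pup 4, 195 without the Rn45s-rich pair and 305 to 1208 leaving out 1 library. Of the 46, 2 became 0 with library size alone, 1 without the low-count filter, 1 with the legacy method, 0 without pup 4, 0 without the Rn45s-rich pair and 0 to 2 leaving out 1 library. The median of the 46 there (-0.563) became -0.396 with library size alone, -0.355 without pup 4, -0.288 without the Rn45s-rich pair and -0.672 to -0.377 leaving out 1 library. With library size alone, 11 of the 46 were lower without overlap in interfollicular epidermis, and 3 had all 4 transgenic libraries under all 4 controls. Both alternatives were chosen after seeing the data, and these counts have no share of all genes on the same scale beside them.

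Between populations of control pups, the count of all genes called (1) became 2 with DESeq2's size factors, 29 with library size alone, 3 without the filter, 149 with DESeq2, 0 with limma-voom, 6 with the legacy method, 0 without the Rn45s-rich pair and 0 to 122 leaving out 1 library; the median of the 46 became 0.596 with library size alone, which moves the median of all genes to 0.264. In transgenic pups, 658 became 336 with the legacy method, 0 without pup 4, 193 without the Rn45s-rich pair and 47 to 1026 leaving out 1 library, and the median of the 46 was 0.0539 without pup 4. With the pup as a replicate block, 7 genes were called in control pups, 1019 in transgenic pups (1 of the 46) and 86 for the difference of effects; it changed no other call among the 46 genes. For the difference of effects, 19 became 97 with library size alone, 45 without the filter, 177 with DESeq2, 1 with limma-voom, 2 with the legacy method, 0 without pup 4, 0 without the Rn45s-rich pair and 0 to 192 leaving out 1 library. Its median (0.07) turned to -0.088 with library size alone, -0.0737 without pup 4, -0.151 without the Rn45s-rich pair and ran from -0.0996 to 0.137 leaving out 1 library.

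Single genes near 0 changed sign. In hair germ Ccna2 was 0.0243 with library size alone, 0.0441 with limma-voom and 0.149 without pup 4, Cenpa was 0.00993 with library size alone, and Bub1 was 0.145 without pup 4. Leaving out 1 library gave -0.355 to 0.395 for Ccna2, -0.626 to 0.366 for Plk1, -0.588 to 0.128 for Bub1, -0.307 to 0.0681 for Cdca8 and -0.178 to 0.0774 for Cenpa. In interfollicular epidermis Bub1 was 0.0247 without pup 4, and without the Rn45s-rich pair Ccna2 was 0.279, Plk1 0.352 and Ube2c 0.268. Leaving out 1 library gave -0.574 to 0.185 for Ccna2, -0.992 to 0.432 for Plk1, -1.35 to 0.231 for Ube2c and -0.0303 to 0.728 for Cenpa. Ube2c between populations of transgenic pups was -0.146 without pup 4 and ran from -0.0498 to 1.67 leaving out 1 library.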
